A study of Mus musculus with 6 samples.

Results

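The genes followed here are 10 receptors, surface markers and transcription factors of lymphoid progenitors and pro-B cells: Kit, Flt3, Cd34, Spn, Cd93, Bst1, Myb, Erg, Sox4 and Lef1. All probes of an Illumina BeadChip named for one of these genes were taken, 24 probes of 45281 in all (10 of 19057 named genes), and 16 of them, from 9 genes, were detected on enough arrays to be tested. The RNA was that of mouse bone marrow cells gated as B220+CD43+, named pre-B cells in the labels. The arrays number 3 labelled Fnip1-null and 3 labelled wild type, with no treatment, age or strain given in the labels, and neither the change made to Fnip1 nor any pooling of mice is described there. The product of Fnip1 binds folliculin, a tumour suppressor of nutrient and energy signalling. The letters A, B and C only tell the arrays of a group apart and are not used as an order or a pairing.

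B cells arise in the bone marrow from stem cells through lymphoid progenitors. These carry the receptor kinases FLT3 and KIT, and the cells become pro-B cells as they start to rearrange the heavy chain gene, while KIT, CD43 (the product of Spn) and CD93 are still on their surface. Large and then small pre-B cells follow, which lose KIT and CD43 and gain CD25. MYB, ERG, SOX4 and LEF1 are transcription factors of these early steps. MYB keeps progenitors dividing and carries them into the B lineage, SOX4 is needed for pro-B cells to form in numbers, and LEF1, a nuclear partner of beta-catenin, supports pro-B cell growth.

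Kit and Lef1 signal was 2.01-fold and 1.89-fold higher on the arrays labelled Fnip1-null, Sox4 signal was 1.5-fold lower, and the probes of Myb disagreed in direction. Spn, Cd93, Cd34, Erg and Bst1 did not pass the test, and Flt3 was not detected on any array. The regions just upstream of the 4 genes with a called probe are shown because these are the members whose signal differed. They are the 250 bases before a start site in RefSeq (build GRCm38.p6), printed 5′ to 3′ along the gene's strand, and for Lef1, which has 4 windows, the first start and the most downstream one are shown. Capitals mark any match, on either strand, to 7 short motifs: CACGTG, the E-box bound by MITF and TFE3, CTTTGAA and CTTTGTT of LEF1 and its relatives (SOX factors share the latter), AACTG and AACGG of MYB, AGGAAG of ETS factors such as ERG, and TGTTTAC of FOXO factors. None of these motifs overlaps another in the windows printed.
Kit (chr5:75574737-75574986, plus strand): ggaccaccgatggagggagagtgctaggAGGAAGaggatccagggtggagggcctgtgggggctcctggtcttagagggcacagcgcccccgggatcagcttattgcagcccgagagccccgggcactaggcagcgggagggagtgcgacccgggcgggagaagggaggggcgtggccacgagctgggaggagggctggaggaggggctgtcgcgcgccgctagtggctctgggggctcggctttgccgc
Lef1, first start (chr3:131110047-131110296, plus strand): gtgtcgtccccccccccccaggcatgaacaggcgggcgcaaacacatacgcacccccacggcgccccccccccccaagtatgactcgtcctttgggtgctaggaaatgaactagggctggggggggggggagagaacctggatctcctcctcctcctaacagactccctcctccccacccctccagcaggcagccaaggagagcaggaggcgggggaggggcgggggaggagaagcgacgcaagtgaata
Lef1, most downstream start (chr3:131156044-131156293, plus strand): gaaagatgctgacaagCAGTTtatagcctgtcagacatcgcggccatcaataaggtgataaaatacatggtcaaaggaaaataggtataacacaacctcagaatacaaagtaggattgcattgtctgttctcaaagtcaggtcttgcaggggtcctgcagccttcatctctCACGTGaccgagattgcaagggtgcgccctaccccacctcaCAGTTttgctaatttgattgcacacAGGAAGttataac
Sox4 (chr13:28953700-28953949, minus strand): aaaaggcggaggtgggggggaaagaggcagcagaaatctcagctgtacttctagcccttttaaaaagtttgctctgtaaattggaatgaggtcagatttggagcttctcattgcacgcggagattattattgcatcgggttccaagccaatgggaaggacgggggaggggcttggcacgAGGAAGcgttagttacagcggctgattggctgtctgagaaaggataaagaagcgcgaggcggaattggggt
Myb (chr10:21160985-21161234, minus strand): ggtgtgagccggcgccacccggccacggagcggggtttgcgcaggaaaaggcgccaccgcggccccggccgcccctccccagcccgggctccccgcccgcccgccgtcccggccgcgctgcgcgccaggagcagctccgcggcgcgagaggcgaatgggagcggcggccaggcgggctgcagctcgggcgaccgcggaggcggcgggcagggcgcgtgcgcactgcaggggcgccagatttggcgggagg
The Kit and the Sox4 window each hold AGGAAG once, a motif present in 29.5% of 32851 RefSeq windows of the same length. The most downstream Lef1 window holds CACGTG, found in 6.02% of all windows, and also AACTG at 2 places (39.1% of windows) and AGGAAG once. The other 3 Lef1 windows and the Myb window hold none of the 7. In all, 14 windows of 8 members were in the table, of which 1 holds CACGTG and 7 hold AGGAAG, and Cd93 and Bst1 had no entry. Kit has another window that overlaps the one printed and holds the same AGGAAG, so the 7 are not all separate sites. A match describes the letters only.

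Signals were corrected for background, quantile normalized and put on a log2 scale, and the groups were compared by limma over all 18172 tested probes with Benjamini-Hochberg adjustment. A call is an adjusted p under 0.05, and differences are Fnip1-null minus wild type. Between 17442 and 18294 probes were detected per array (p under 0.05), and the median signal lay between 40.5 and 44.3. Each comparison rests on 3 arrays per group, a number that limits its precision. Signal of Fnip1 itself was the higher in the group labelled Fnip1-null (log2 difference 0.95, SE 0.11, limma adjusted p = 0.000665). Where its probes lie relative to the changed part of the gene is not known here, so the transcript does not bear out the genotype labels. Array A of each group lacked Xist signal (4.22 and 4.62), which arrays B and C had (9.51 to 10.79), so each group mixes male and female RNA alike. The column names of the arrays labelled Fnip1-null also hold words of unstated meaning that those labelled wild type lack. Which mouse or mice gave each sample is not stated, so the p-values speak for the spread among these samples, which may in part be technical.

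Several genes of pro-B and pre-B cells, which were not part of the sorting gate, were detected on all arrays. Vpreb1 and Igll1, which encode the surrogate light chain of the pre-B cell receptor, stood between 12.12 and 12.45 and between 12.90 and 13.67 (log2). Il7r, the interleukin-7 receptor gene, lay between 10.81 and 11.29, and none of these 3 genes passed the test. Ptprc, whose product carries the B220 epitope, lay between 6.90 and 7.42. The only probe named for Pax5, the factor that fixes B cell identity, was detected on none of the 6 arrays, and Cd79a was not analysed here for want of a probe of that name.

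Of the 9 member genes tested, each by its probe of highest mean, 3 were called higher, 1 was called lower and 5 did not pass. The 3 include Myb by its brightest probe only, as another Myb probe was called lower. With the mean of all tested probes of a gene, 2 were called higher and 0 lower. Over all 9679 genes tested, 13.1% were called, 7.86% higher and 5.25% lower. Among the 16 tested member probes 4 were called higher and 2 lower, against 14.2% of all probes called, 7.7% higher and 6.51% lower. The groups did not overlap in 4 of the 9 genes and in 6 of the 16 probes, against 33% of all genes and 33.8% of all probes. When array B of either label was left out, only 1 member gene was called higher, in place of 3. Calls also fell over all genes, from 761 higher to 454 without Fnip1-null array B and 481 without wild-type array B. The lone call in the lower direction, Sox4, was lost in 3 of the 6 fits that left out an array. An exact two-sided permutation test on 3 arrays against 3 cannot go below p = 0.1, the value it gave for each called member probe.

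**Figure D1:**
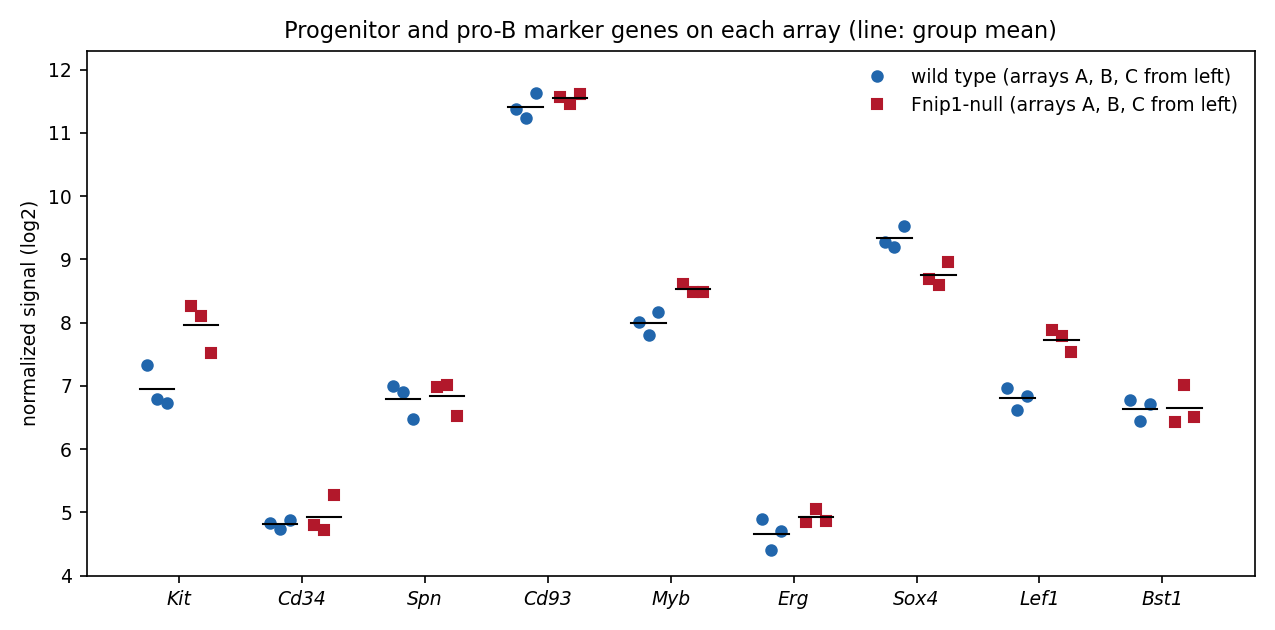
Normalized signal (log2) of the 9 tested member genes on each of the 6 arrays, each gene by its probe of highest mean, with group means as lines. The groups separate for Kit, Myb, Sox4 and Lef1 and overlap for the other 5, and heights of different genes cannot be compared because probes differ in brightness.

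Kit encodes the receptor of stem cell factor, which marks progenitors and pro-B cells and is also on mast cells. Its signal was 8.27, 8.11 and 7.52 on arrays A, B and C labelled Fnip1-null (log2). On those labelled wild type it was 7.34, 6.80 and 6.74. Arrays did not overlap, but the lowest of one group (array C) lay only 0.18 above the highest of the other (array A). The means were 7.97 ± 0.40 (SD, n = 3) and 6.96 ± 0.33 (SD, n = 3), which is 2.01-fold (95% interval 1.43 to 2.83) with a limma adjusted p = 0.0156. Leaving out Fnip1-null array B lost the call (log2 difference 0.94, limma adjusted p = 0.061). So did leaving out wild-type array B (0.93, adjusted p = 0.052) or C (0.90, adjusted p = 0.0582), and using no detection filter (adjusted p = 0.0966). Of 17 alternatives 13 kept the call, among them the sex of the RNA as a block (limma adjusted p = 0.0034). A pair of other Kit probes, both made to cDNA clone entries, were too dim to be tested. One of them passed detection on 2 Fnip1-null arrays and no wild-type array, at a mean of 4.73 against 4.60, and the other on no array. Only 1 probe thus carries the difference in Kit.

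Flt3 encodes the receptor of FLT3 ligand, a factor of early lymphoid progenitors. Both of its probes lay between 4.25 and 4.53 (log2), and their detection p-values ran from 0.134 to 0.819 over the 6 arrays. No level or difference can be given at this signal. Of the ligand genes, Kitl had 3 probes, none detected on any array. Flt3l was detected on all arrays labelled Fnip1-null and on 2 of the others, with a log2 difference of 0.38 (SE 0.18, limma adjusted p = 0.205).

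Spn encodes CD43, the sialoprotein by which these cells were sorted, so its presence was set by the gate. The brightest probe read 6.98, 7.01 and 6.53 on arrays A, B and C labelled Fnip1-null and 7.00, 6.90 and 6.48 on those labelled wild type (log2). The groups overlapped almost entirely, with a difference of 0.05 (95% interval -0.35 to 0.44, limma adjusted p = 0.894). Other tested probes of Spn stood at 0.21 (-0.06 to 0.49) and 0.23 (-0.19 to 0.65), and the fourth was not detected on any array.

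Cd93 encodes a lectin-like receptor that marks B-lineage cells up to the transitional stage. Its brighter probe read 11.56, 11.45 and 11.62 on the arrays labelled Fnip1-null and 11.37, 11.24 and 11.63 on those labelled wild type (log2), with array C highest in each group. The difference was 0.13 (95% interval -0.15 to 0.42, adjusted p = 0.540), and that of the other probe 0.04 (-0.34 to 0.41). Bst1, which encodes CD157, an ectoenzyme on stromal cells and on pro-B and pre-B cells of the mouse, read 6.44, 7.01 and 6.51 on arrays labelled Fnip1-null. It read 6.77, 6.45 and 6.71 on those labelled wild type, for a difference of 0.01 (-0.36 to 0.38, limma adjusted p = 0.977). The highest and the lowest array for Bst1 were both labelled Fnip1-null. Cd38, its relative in the same enzyme family, was not analysed here for want of a probe of that name.

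Cd34 encodes a sialomucin of stem and progenitor cells and of endothelium. Its 1 probe was near background. It read 4.80, 4.72 and 5.27 on the arrays labelled Fnip1-null, 1 of which detected it, and 4.84, 4.74 and 4.88 on those labelled wild type, 2 of which did (log2). The difference was 0.11 (95% interval -0.22 to 0.45, limma adjusted p = 0.675), and its sign rested on array C labelled Fnip1-null, without which it was -0.06. Erg, an ETS factor gene of stem cells and early progenitors, had 1 probe detected on all arrays labelled Fnip1-null but on only 1 of the others. It read 4.85, 5.05 and 4.86 against 4.89, 4.40 and 4.71, a difference of 0.25 (-0.06 to 0.57, adjusted p = 0.275). Its other probe was not detected on any array.

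Over the 5 member genes that did not pass, differences on the log2 scale ran from 0.01 to 0.25 and the 95% intervals from -0.36 to 0.57. These uncalled genes are thus not shown to be equal between the groups. The standard deviations within groups, over the 9 tested genes, ran from 0.07 (Cd34, wild type) to 0.40 (Kit, Fnip1-null), with a median of 0.18.

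**Figure D2:**
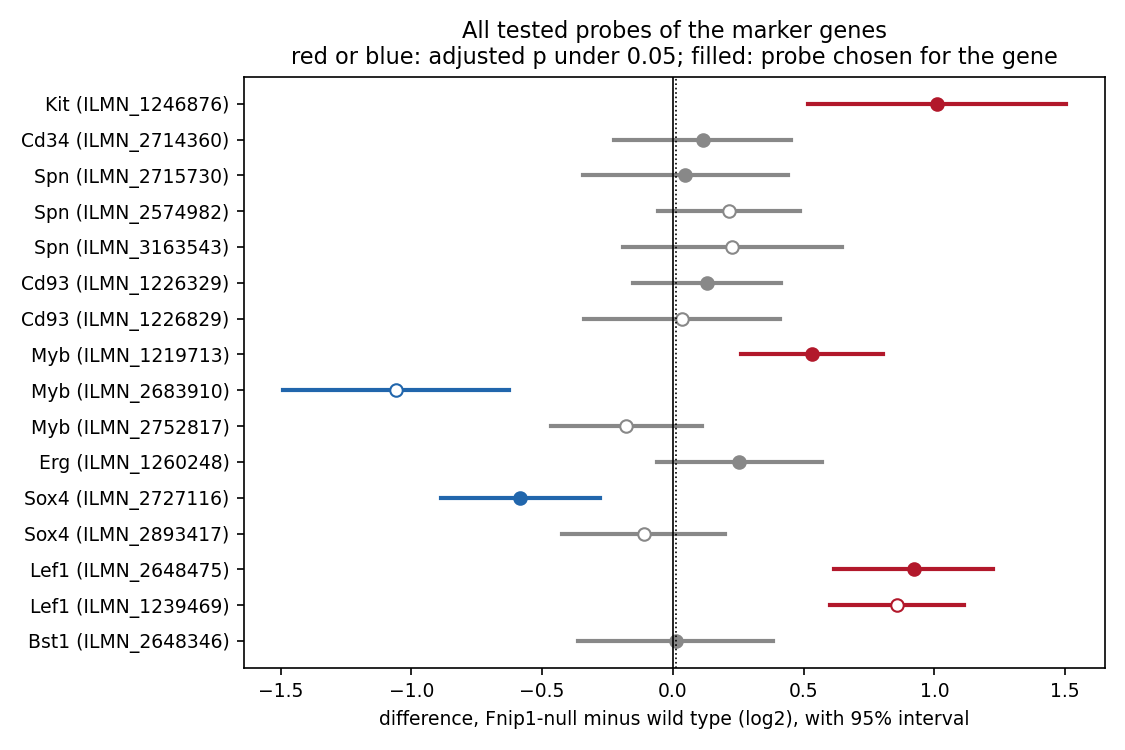
Difference between the groups (log2, Fnip1-null minus wild type) with its 95% interval for each of the 16 tested probes of the members. Filled points are the probes that stand for their gene, coloured points have a limma adjusted p under 0.05, and the dotted line is the median of all tested genes at 0.01.

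Lef1 gave the steadiest difference among the members. Its brightest probe read 7.88, 7.79 and 7.53 on arrays A, B and C labelled Fnip1-null (log2), and 6.97, 6.62 and 6.84 on those labelled wild type. The groups were separated by 0.56, more than the SD of 0.18 found within each of them. The means of 7.73 and 6.81 (n = 3 each) are 1.89-fold apart (95% interval 1.53 to 2.34), with a limma adjusted p = 0.00249. A second probe of the same transcript entry read 6.56, 6.67 and 6.34 against 5.64, 5.69 and 5.67. That is 1.81-fold (1.52 to 2.17, limma adjusted p = 0.00153), with the groups 0.65 apart. Both probes kept their call in each of 17 alternative fits, with log2 differences from 0.71 to 1.03 for the brightest and from 0.52 to 1.14 for the other. The remaining pair of Lef1 probes was detected on no array.

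Sox4 encodes a transcription factor with the same kind of DNA-binding domain as LEF1, the high mobility group box. Its brighter probe read 8.69, 8.60 and 8.96 on the arrays labelled Fnip1-null and 9.27, 9.20 and 9.53 on those labelled wild type (log2). Arrays of the 2 groups lay 0.24 apart, and array C was highest in both. The signal was 1.5-fold lower on the arrays labelled Fnip1-null (95% interval 1.21 to 1.85, limma adjusted p = 0.0210). Of the arrays labelled Fnip1-null, leaving out A (log2 difference -0.55, limma adjusted p = 0.0572) or B (-0.51, adjusted p = 0.0784) lost the call. So did leaving out array C labelled wild type (-0.48, adjusted p = 0.0655), using no detection filter (adjusted p = 0.0659) and using the authors' processed values (-0.60, adjusted p = 0.0519). The other Sox4 probe, dimmer but detected on all arrays, stood at -0.11 (-0.42 to 0.20, adjusted p = 0.651), and the mean of both probes was not called.

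Myb encodes the transcription factor c-MYB, and its 3 probes gave 3 different answers. The brightest, made to a cDNA clone entry, read 8.62, 8.48 and 8.49 on the arrays labelled Fnip1-null and 8.01, 7.81 and 8.17 on those labelled wild type (log2). It was 1.44-fold higher on the former (95% interval 1.20 to 1.74, limma adjusted p = 0.0194). A probe made to the RefSeq transcript was called in the other direction. It read 5.78, 6.47 and 6.45 on the arrays labelled Fnip1-null and 7.24, 7.13 and 7.51 on those labelled wild type. Its signal was 2.08-fold lower on the former (1.55 to 2.81, adjusted p = 0.00699), with the groups 0.66 apart. The third, also made to the RefSeq transcript, stood at -0.18 (-0.47 to 0.11, adjusted p = 0.410).

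Of 3818 genes with more than 1 tested probe, Myb is among 9 that had called probes in both directions. The called RefSeq probe kept its call without any single array and lost it only with no detection filter (adjusted p = 0.0532) among 17 alternatives. The clone-entry probe lost its call in 4 of the 6 fits without 1 array. In those fits its log2 difference was 0.49 (Fnip1-null array A left out), 0.56 (Fnip1-null array B), 0.53 (wild-type array A) and 0.44 (wild-type array B). Which part of the Myb transcripts each probe reads is not given in the sources used here, so no direction is stated for Myb as a gene.

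**Figure D3:**
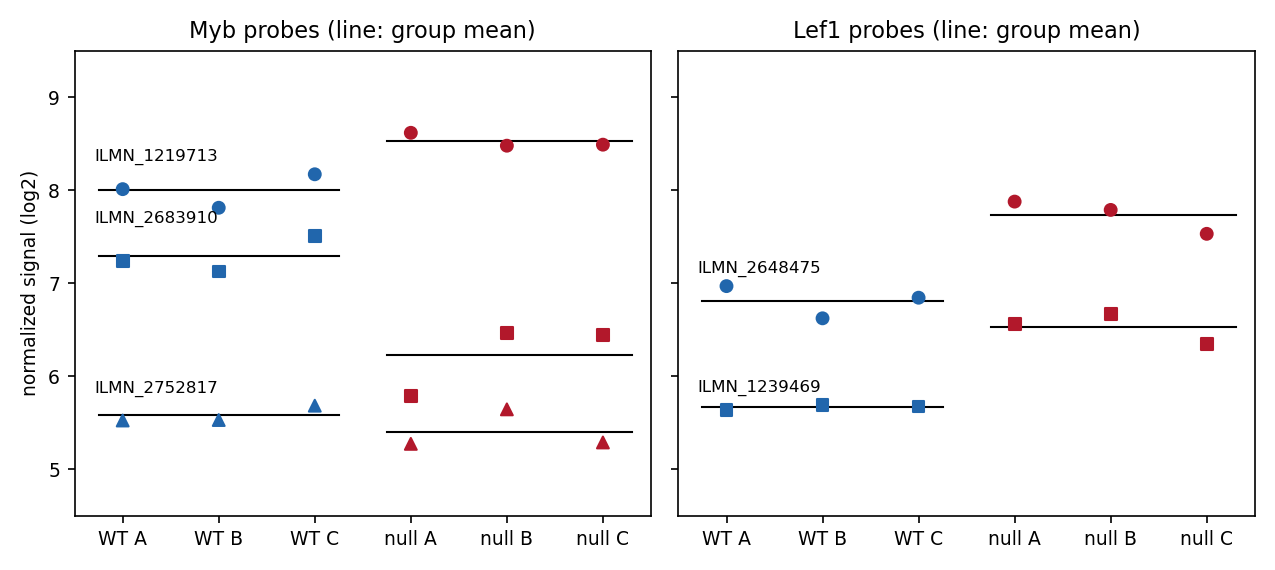
Normalized signal (log2) on each array for the 3 tested probes of Myb and the 2 of Lef1, with group means as lines. In Myb the probe ILMN_1219713 is higher and ILMN_2683910 lower on the arrays labelled Fnip1-null, while both Lef1 probes are higher there.

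Other genes of stem cells and lymphoid progenitors showed no shared direction. Of 31 listed, 21 were tested, 2 were called higher, 2 lower and 17 did not pass, with a median log2 difference of 0.01, as over all genes. Beside the counts of this and later lists stand the shares of all tested genes, 7.86% called higher and 5.25% lower. Gfi1, a repressor gene active in lymphoid progenitors, was 2.37-fold higher (95% interval 1.90 to 2.96, limma adjusted p = 0.000627). It read 9.86, 10.26 and 10.18 on the arrays labelled Fnip1-null and 8.92, 8.66 and 8.99 on those labelled wild type (log2). Lyl1, a blood stem cell factor gene, stood at 0.60 (adjusted p = 0.0220) and was not followed under the alternatives. A close relative of Gfi1, Gfi1b, a repressor gene of erythroid cells and megakaryocytes, went the other way. It read 4.83, 4.99 and 5.20 against 6.79, 6.30 and 6.62, and was 2.96-fold lower (2.33 to 3.74, adjusted p = 0.000244). Its readings on the arrays labelled Fnip1-null lay in the range of those of Cd34, which was near background. The size of the Gfi1b difference depended on the processing, from -0.86 (log2) with another background correction to -2.35 in the authors' processed values, and it was called in both. Its other probe, not detected on the 3 arrays labelled Fnip1-null, was at least 3.23-fold lower, taken against the lowest detected signal or the probe's own where that was higher. Spi1, the gene of the myeloid and B-lineage factor PU.1, stood at -0.67 (adjusted p = 0.0173), a call lost without array B of either label (-0.55 and -0.58). Meis1, Runx1, Mef2c, Ikzf1 and Gata2, genes of stem and progenitor cell factors, did not pass, with log2 differences from -0.21 (Mef2c) to 0.20 (Ikzf1) by their brightest probes, and other tested probes of Ikzf1 lay on both sides of 0.

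Of 22 other pro-B cell genes, 17 were tested, 1 was called higher, 4 lower and 12 missed the threshold. The median over the 17 was -0.10. Rag1, the recombinase gene, read 8.08, 8.08 and 7.82 on arrays labelled Fnip1-null and 10.10, 9.96 and 10.09 on those labelled wild type (log2). Its signal was thus 4.17-fold lower (95% interval 3.49 to 4.98), with a limma adjusted p = 7.38e-06. Its partner Rag2 stood at -0.69 (adjusted p = 0.0108), and at -0.35 to -1.10 over the alternatives. Ebf1, the factor that sets up the B lineage, stood at -0.52 (adjusted p = 0.0147), a call lost without array C labelled Fnip1-null (-0.46), and its other tested probe at -0.74. Cd79b, a signalling chain of the B cell receptor, stood at -0.49 (adjusted p = 0.0304) and Arpp21 at 0.77 (adjusted p = 0.0463), and neither was followed under the alternatives. Dntt, which encodes terminal transferase and marks pro-B cells, stood at 0.57 and did not pass (SE 0.23, adjusted p = 0.143). It passed without array A labelled wild type (0.84) and with the sex of the RNA as a block (0.57, limma adjusted p = 0.0481). Vpreb1, Igll1 and Il7r stood at 0.12, 0.36 and 0.18, and Igll1 passed without the same array (0.56).

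Among 20 adaptors, phosphatases and inhibitors downstream of KIT and FLT3, 15 were tested, 2 were called higher, 1 lower and 12 did not pass. Socs2, which encodes a suppressor of cytokine signalling, was 2.17-fold higher (95% interval 1.54 to 3.07, limma adjusted p = 0.0105), a call lost with no detection filter (adjusted p = 0.0754). It read 9.55, 10.51 and 10.14 on the arrays labelled Fnip1-null and 8.72, 9.05 and 9.06 on those labelled wild type (log2). Cblb, a ubiquitin ligase gene, stood at -0.56 (adjusted p = 0.0131), a call lost without Fnip1-null array B (-0.54). Stat5a stood at 0.42 (adjusted p = 0.0366). Of the fits without 1 array, that without array C labelled Fnip1-null was the only one to keep the call of Stat5a, and the others gave 0.35 to 0.47.

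Of 20 partners and relatives of LEF1, 13 were tested, 3 were called higher, none lower, and 10 missed the threshold (median 0.07). The 3 are Apc (0.71), a scaffold of the complex that degrades beta-catenin, Bcl9l (0.49), a coactivator of beta-catenin, and Tle3 (0.47), a corepressor of LEF1. Their limma adjusted p were 0.0368, 0.0194 and 0.0345, and each lost its call in 4 or 5 of the 6 fits without 1 array. Over these 6 fits the values ran from 0.49 to 0.90 for Apc, 0.44 to 0.56 for Bcl9l and 0.36 to 0.56 for Tle3. The call was kept without Fnip1-null array C (Apc), Fnip1-null array B or array A labelled wild type (Bcl9l), and array A labelled wild type (Tle3). Tcf7, a close relative of Lef1, was not analysed here for want of a probe of that name, and Axin2, a feedback target of the pathway, was not called.

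Of 15 relatives and partners of MYB, ERG and SOX4, 11 were tested and 1 was called. Ets1, an ETS factor gene like Erg, read 12.38, 12.20 and 12.18 on the arrays labelled Fnip1-null and 11.41, 11.48 and 11.55 on those labelled wild type (log2). It was 1.71-fold higher (95% interval 1.45 to 2.02, limma adjusted p = 0.00176), while its other tested probes, both dimmer, were not called and stood at 0.18 and -0.30. Fli1, the nearest relative of Erg, did not pass (-0.16, adjusted p = 0.424).

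**Figure D4:**
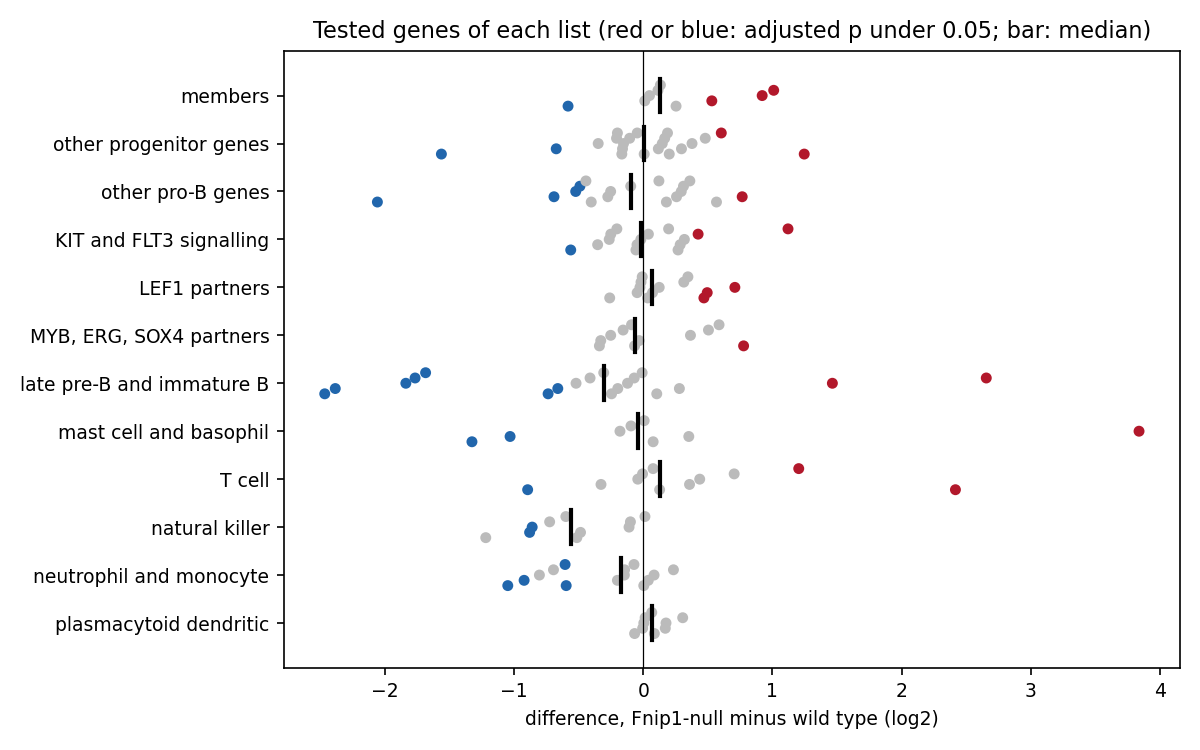
Differences between the groups (log2, Fnip1-null minus wild type) for the tested genes of 12 lists, 1 point per gene, with the list median as a bar. Called genes are coloured, and the late pre-B list holds 7 called lower and 2 called higher, the member list 3 higher and 1 lower. Myb is among these 3 by its brightest probe only.

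Several members are also expressed by cells other than B-lineage progenitors, and in bulk RNA fewer cells of a type and less RNA per cell cannot be told apart. Of 24 genes of later pre-B and immature B cells, 19 were tested, 2 were called higher, 7 lower and 10 missed the threshold (median -0.31). Over all tested genes 7.86% were called higher and 5.25% lower. Il2ra, which encodes CD25 of pre-B cells, stood at -1.77 (limma adjusted p = 0.000309) and was detected on 2 of the 3 arrays labelled Fnip1-null. Over the alternatives, all of which kept the call, its value ran from -2.86 to -0.96. Cd40 and Cd22 stood at -2.47 and -1.84, and Cxcr5 at 2.66.

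Kit marks mast cells as well, which as a rule lack B220. Of 14 mast cell and basophil markers 8 were tested, 1 was called higher, 2 lower and 5 did not pass. Their summed signal, taken before normalization, was 3476 to 6915 on the arrays labelled Fnip1-null and 1877 to 1984 on those labelled wild type. Without Hdc, the histidine decarboxylase gene (3.84, adjusted p = 7.19e-05), left out after its values were seen, the sums were 959 to 1445 and 1508 to 1743. Mcpt8, a basophil protease gene, stood at -1.03 (adjusted p = 0.00486), and Prss34, another one, at -1.33 (adjusted p = 0.0134), a call lost without array C labelled wild type (-1.17). Cpa3, the mast cell carboxypeptidase gene, stood at -0.18 (adjusted p = 0.587) and Fcer1a at 0.08, while Ms4a2, Tpsb2, Tpsab1, Cma1, Mcpt4 and Slc18a2 did not have enough detected arrays to be tested. The part of such cells in the difference in Kit was not tested.

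Lef1 is also a gene of T cells, most of which lack B220. All 14 T cell markers had probes and 11 were tested, of which 2 were called higher (Lat at 2.42, Cd3e at 1.20), 1 lower (Thy1 at -0.90) and 8 did not pass. The call of Cd3e was lost without array A (1.10) or array C (1.05) labelled wild type. The summed signal of the 11 was 2517 to 3011 on the arrays labelled Fnip1-null and 1643 to 2142 on those labelled wild type. Without Lat and Cd3e, left out after their values were seen, it was 1355 to 1668 and 1374 to 1788. Cd5, Themis and Cd8a did not have enough detected arrays to be tested. The part of T cells in the difference in Lef1 was not tested.

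Of 10 tested natural killer markers 2 were called lower (Eomes at -0.86, Klre1 at -0.88). The summed signal of the 10 was 4376 to 6203 on the arrays labelled Fnip1-null. On arrays A, B and C labelled wild type it was 8120, 5579 and 5045. Of 14 neutrophil and monocyte markers 4 were called lower (Ctsg at -1.05, Prtn3 at -0.92, Cd14 at -0.61 and Ccr2 at -0.60). The 14 summed to 45334, 19741 and 20183 on arrays A, B and C labelled Fnip1-null. On those labelled wild type the sums were 35145, 32283 and 17122. The call of Eomes was lost without Fnip1-null array A (-0.75) and that of Ctsg without Fnip1-null array B (-0.92). Klre1 (-1.11 to -0.64), Ccr2 (-0.70 to -0.46) and Cd14 (-0.75 to -0.45) lost theirs in at least 4 of the 6 fits without 1 array, and Prtn3 was not followed there. Sizes also depended on the processing, and over all alternatives ran from -1.14 to -0.28 for Cd14 and from -1.63 to -0.41 for Eomes. Plasmacytoid dendritic cell markers (9 tested), erythroid and megakaryocyte markers (3), endothelial and stromal markers (3) and plasma cell markers (3) had no called gene by limma in the probes that stand for them.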

How the data were processed

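RNA of 6 sorted cell samples was measured on single-colour Illumina BeadChips. Per the file headers, 1 deposited table gives signal intensity without normalization, beside the authors' detection p-value of every probe. A second deposited table holds the authors' processed values, taken as log2 from their range, with background correction and log base not given in the sources used here. A tool named in the submitters' processing notes is affy. Scanner columns name a genotype but no replicate number. Intensities were processed with neqc (normexp from the detection p-values, offset 16, quantile normalization) in limma 3.58.1 (R 4.3.3). The 18172 probes detected at p under 0.05 on at least 3 of 6 arrays were fitted with lmFit and eBayes (9.17 degrees of freedom, 95% intervals), with Benjamini-Hochberg adjustment over all of them. The fit was tested on simulated arrays.

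Probes were named through the platform annotation, with symbols updated through a RefSeq gene table: 34885 of 45281 probes had 1 symbol, 18 several and 10378 none there. A gene stands for its probe of highest mean. Summed signals of marker lists are sums of intensities before normalization, over the probes that stand for the tested genes. Named were all members, up to 3 called genes of lowest p per other list, and a fixed set of lineage genes; genes beyond these, such as Meis1, Lyl1, Arpp21, Ptprc and Prtn3, were added after their values were seen. The members and lists were chosen with earlier results of these data known. Promoter windows are RefSeq's (GRCm38.p6). Alternatives were other background corrections, normalizations, filters, spread estimates, blocks on sex and replicate number, and each array left out.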

Additional observations from a re-analysis of the deposited data

How the results depend on the processing

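Without single arrays, the member genes called higher numbered 1 to 3 and those called lower 0 to 1. Over all genes, the same fits called 454 to 563 higher and 303 to 392 lower, in place of 761 and 508. Called genes of the progenitor, pro-B and pathway lists numbered 3 to 10 higher and 4 to 7 lower, those of the late pre-B list 2 higher and 6 to 9 lower, and other cells' markers 2 to 5 higher and 5 to 10 lower. The member gene called lower was lost (0 called) with no detection filter, with the series matrix values and with the mean of all tested probes. With no detection filter, 3 genes of the progenitor, pro-B and pathway lists together were called higher in place of 9, and 1 marker of other cells lower in place of 9. The series matrix gave 4 and 5. With sex as a block 5 such markers were called higher in place of 3.

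Whether the numbers 1 to 3 of the labels pair the arrays cannot be told from so few arrays. On the series matrix, deviations of same-numbered arrays from their group means correlated at 0.17, -0.0032 and 0.23. Arrays of unlike number gave -0.24 to 0.074, and not every array correlated best with its own number. With the replicate block, on the series matrix values, 3 genes of the progenitor, pro-B and pathway lists together were called higher and 2 lower. Of the markers of other cells 4 were called lower. The clone-entry probe of Myb then stood at 0.56 (limma adjusted p = 0.0759), no longer called. Of the list genes, Rag2, Ebf1, Spi1, Cblb, Bcl9l, Cd3e, Prss34 and Eomes were called on the series matrix values without the block but not with it. Stat5a, Apc, Tle3, Klre1, Ccr2 and Cd14 were called on them neither with the block nor without it. Over all genes the block gave 376 higher and 251 lower, the series matrix without it 548 and 361, no detection filter 570 and 366, and the main setting 761 and 508.

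Signs turned only where differences were small. Without single arrays the values ran from -0.056 to 0.22 for Cd34, -0.11 to 0.20 and -0.00071 to 0.35 for 2 Spn probes, -0.068 to 0.21 for the dimmer Cd93 probe, -0.21 to 0.037 for the dimmer Sox4 probe, -0.17 to 0.12 for Bst1 and -0.20 to 0.30 for Fcer1a. Array weights gave -0.00631 for Spn and -0.061 for Fcer1a, and cyclic loess -0.00252 for Bst1. The cause was not tested.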
